A study of Mus musculus with 6 samples.

Results

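The CCN family of matricellular proteins was examined in RNA-seq data of mouse abdominal aorta, with 3 *Prdm16* SMKO and 3 control libraries. The 5 members considered, *Ccn1*, *Ccn2*, *Ccn3*, *Ccn4* and *Ccn5*, are the rows with those symbols in a table of 55426 genes, and each symbol had 1 row. *Prdm16* SMKO mice (*Prdm16* fl/fl *Myh11*-CreERT2) lose the transcriptional regulator PRDM16 in vascular smooth muscle cells (VSMCs) once tamoxifen has activated the Cre recombinase, and the controls, described as wild type, carried *Myh11*-CreERT2 too. All mice were male, as the Cre cassette lies on the Y chromosome, and on the C57BL/6J background. Mice of both groups received tamoxifen by gavage in corn oil at 75 mg/kg/day for 5 days, at 8 to 10 weeks of age, and were used 2 weeks later, while the interval before the aortas for sequencing were taken is not given separately. The aortas came from mice without induced aneurysm. *Myh11* is active in smooth muscle of every organ, so recombination was not restricted to the aorta.

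CCN proteins are secreted into the matrix, where they act less as scaffold than as signals. They are built from modules that resemble insulin-like growth factor binding proteins, von Willebrand factor type C repeats and thrombospondin type 1 repeats, and all but CCN5 end in a cystine knot domain. Through these modules they bind integrins, LRP receptors, heparan sulfate proteoglycans and growth factors, and in the arterial wall they are known for effects on adhesion, proliferation and matrix production of VSMCs. *Ccn1* and *Ccn2* are classic targets of YAP-TEAD, serum response factor and TGF-beta and respond quickly to stretch and serum, whereas *Ccn3* and *Ccn5* are best known for restraining VSMC growth and *Ccn4* as a WNT-induced gene.

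*Ccn1* and *Ccn3* were the members that stood lower in every *Prdm16* SMKO library than in any control library. The mean of *Ccn1* was 23.6% of the control mean and that of *Ccn3* was 59.3%, while the mean levels of *Ccn2*, *Ccn4* and *Ccn5* were 85.0%, 83.3% and 94.3% of control with overlapping groups. Levels are given as TPM, a share of all transcripts that takes the length of each into account and can therefore be compared between genes. Differences were tested on log2(TPM + 0.5) with limma over 15775 genes, those averaging 0.5 TPM or more, and a gene was called at a Benjamini-Hochberg adjusted p under 0.05. All 5 members passed that minimum, and 0 of 5 were called by limma, against 0.355% of all genes tested, 0.171% called lower and 0.184% called higher. Without adjustment, 2 of 5 had p under 0.05, both lower, namely *Ccn1* and *Ccn3*, beside 3.85% of all genes tested that were lower and 4.88% that were higher at that level. The groups did not overlap for 2 of 5 members on the lower side, beside 5.76% of all genes tested, and for 0 of 5 on the higher side, beside 7.02% of all genes. Since the tissue was sequenced whole, fewer cells of a type and less RNA per cell cannot be told apart in any of these values.

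Libraries of both groups were alike in the number of genes above 0 TPM, at 20332 to 22100. The 45S ribosomal RNA locus accounted for 15.6% to 31.4% of all TPM and the mitochondrial genome for 15.8% to 27.4%, and both shares overlapped between the groups. The submitters state an average of 40 M read pairs of 151 bp per library, but TPM keep no record of the depth of each one. *Prdm16* itself measured 33.4, 36.8 and 30.8 TPM in the controls and 20.8, 27.7 and 14.8 TPM in the *Prdm16* SMKO mice. It was thus lower in each knockout library, with a log2 fold change of -0.70 ± 0.23 (SE, n = 3 per group, limma adjusted p = 0.376), and the gene-level value does not separate the floxed exons from the rest of the transcript. The VSMC markers *Myh11* and *Acta2* were abundant in every library, at 1488 to 3242 and 5256 to 13020 TPM.

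*Ccn1*, formerly Cyr61, encodes an integrin-binding protein that promotes cell adhesion and angiogenesis. It lies on the minus strand of chr3:145646976-145649981 (GRCm38, GENCODE M21), in 5 exons that encode 379 residues. Its promoter is shown because *Ccn1* had the largest difference of the family. RefSeq (GRCm38.p6) supplied a promoter entry for 1 of the 5 members. The 250 bases before the annotated start, at chr3:145649986-145650235, are printed 5′ to 3′ on the minus strand, with capitals marking, in order, a match to the TEAD motif GGAATG read on the opposite strand, a match to the cAMP response element half-site TGACG on the opposite strand, and a TATAAA box.
Ccn1 promoter: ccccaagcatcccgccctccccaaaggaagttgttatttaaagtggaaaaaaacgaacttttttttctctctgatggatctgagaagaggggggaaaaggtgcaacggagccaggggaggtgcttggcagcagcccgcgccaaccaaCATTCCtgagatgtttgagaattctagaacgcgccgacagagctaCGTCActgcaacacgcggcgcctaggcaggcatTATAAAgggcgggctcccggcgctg
The TEAD match ends 98 bases, the half-site 54 bases and the TATA box 20 bases before the start, and none of these matches overlap. With both strands searched, the TEAD letters occur in 14.4%, the half-site in 19.8% and the TATA letters in 14.3% of the 27025 promoter windows of the same length. The AP-1 motif TGANTCA, found in 7.82% of windows, the SMAD motif CAGAC, found in 45.8%, and the CArG box of serum response factor, found in 1.62%, had no match in this window. A match of letters is a description of the sequence and does not show binding.

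In control aortas, *Ccn1* measured 688, 699 and 519 TPM. In *Prdm16* SMKO aortas it measured 65.0, 211 and 175 TPM. The highest knockout library was below the lowest control library by more than the distance between any pair of controls, and *Prdm16* SMKO replicate 1 was far lower than the other two knockouts. The mean was 635 ± 101 TPM (SD, n = 3) in controls and 150 ± 75.9 TPM (SD, n = 3) in knockouts, a log2 fold change of -2.23 ± 0.39 (SE) with a 95% interval of -3.12 to -1.34, or 4.69-fold lower. The limma p was 3.3e-04 before and 0.0638 after adjustment over all genes, and the exact permutation test (two-sided) gave p = 0.1, the smallest that 3 libraries against 3 allow. By unadjusted p the gene ranked 81 of 15775, and 30 of the genes tested had a lower log2 fold change.

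*Prdm16* SMKO replicate 1 also carried the highest summed level of neuron and Schwann cell markers and of muscle markers. Without this library the log2 fold change of *Ccn1* was smaller in size, at -1.71, and passed the threshold (limma adjusted p = 0.0195). Whether the RNA of such cells bears on the level of *Ccn1* was not tested. *Ccn1* also passed with a minimum mean of 2 TPM (limma adjusted p = 0.0315) and with array weights (limma adjusted p = 0.00875), which gave control replicate 1 a weight of 10.1. Under the other 14 of 17 alternative settings it did not pass, with limma adjusted p of up to 0.252. The spread of *Ccn1* within groups, pooled over both, was 0.66 on the log2 scale, against a median of 0.21 among the 500 genes closest to it in level. That spread lay mainly in the knockouts, with an SD of 0.91 on the log2 scale against 0.24 in the controls. Among all genes of a library ordered by TPM, *Ccn1* stood at a median rank of 107 in controls and 430 in knockouts.

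*Ccn2*, formerly Ctgf, encodes a profibrotic protein that acts downstream of TGF-beta. It lies on the plus strand of chr10:24595442-24598683, in 5 exons that encode 348 residues. It was the most abundant member in every library. Controls had 1049, 1263 and 1215 TPM, and *Prdm16* SMKO mice had 974, 1137 and 889 TPM. The groups overlapped, as knockout replicate 2 was above control replicate 1. The log2 fold change was -0.24 ± 0.17 (SE, n = 3 per group, limma adjusted p = 0.825), and its 95% interval of -0.62 to 0.14 does not include a change of the size measured for *Ccn1*.

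*Ccn3*, formerly Nov, encodes a protein known to limit inflammation and VSMC proliferation in the vessel wall. The gene occupies chr15:54745702-54754039 on the plus strand, with 5 exons and 354 residues. *Ccn3* measured 368, 431 and 347 TPM in the controls. In the knockouts it measured 226, 255 and 198 TPM. Replicates of each group lay close together and every knockout was well below every control. The mean was 382 ± 43.6 TPM (SD, n = 3) in controls and 226 ± 28.1 TPM (SD, n = 3) in knockouts, giving a log2 fold change of -0.75 ± 0.16 (SE), a 95% interval of -1.12 to -0.39 and a 1.69-fold lower level. This missed the threshold (limma adjusted p = 0.119, unadjusted p = 0.00126), and the exact permutation test again gave its smallest p of 0.1. *Ccn3* passed under 4 of 17 alternative settings. Among these were scaling by median-of-ratios size factors (log2 fold change -0.77, limma adjusted p = 0.0233) and leaving out mitochondrial and 45S transcripts (-0.74, limma adjusted p = 0.0295). Under the other 13 it did not pass, with limma adjusted p of up to 0.393. The pooled spread of *Ccn3* was 0.17 on the log2 scale, close to that of *Ccn2* at 0.16 and below the median of 0.21 for genes of like level.

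*Ccn4*, formerly Wisp1, encodes a WNT-induced protein with effects on migration and survival of VSMCs. Located at chr15:66891320-66923201 on the plus strand, it encodes 367 residues in 5 exons. It was the least abundant of the 5, at 6.18, 5.51 and 5.99 TPM in controls and 5.91, 5.13 and 3.69 TPM in knockouts. Knockout replicate 3 was the low value, and knockout replicate 1 was inside the range of the controls. The log2 fold change was -0.26 ± 0.21 (SE, n = 3 per group, limma adjusted p = 0.853) with a 95% interval of -0.73 to 0.21.

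*Ccn5*, formerly Wisp2, encodes the short member without the cystine knot, and is known as a growth arrest gene of VSMCs. It spans chr2:163820861-163833146 on the plus strand, again with 5 exons, but encodes only 251 residues. Its values were 133, 167 and 101 TPM in controls and 134, 148 and 96.7 TPM in knockouts. Both groups covered nearly the same range. The log2 fold change of -0.08 ± 0.23 (SE, n = 3 per group, limma adjusted p = 0.982) had a 95% interval of -0.60 to 0.44 and changed sign, to 0.10, when either control replicate 2 or knockout replicate 3 was left out. *Ccn5* varied within groups by 0.34 on the log2 scale, more than the median of 0.22 for genes of like level. The sixth gene of the family, *Ccn6* (chr10:39150970-39163794), is listed at 0 in all libraries but control replicate 2, where it measured 0.12 TPM, and was not tested.

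**Figure D1:**
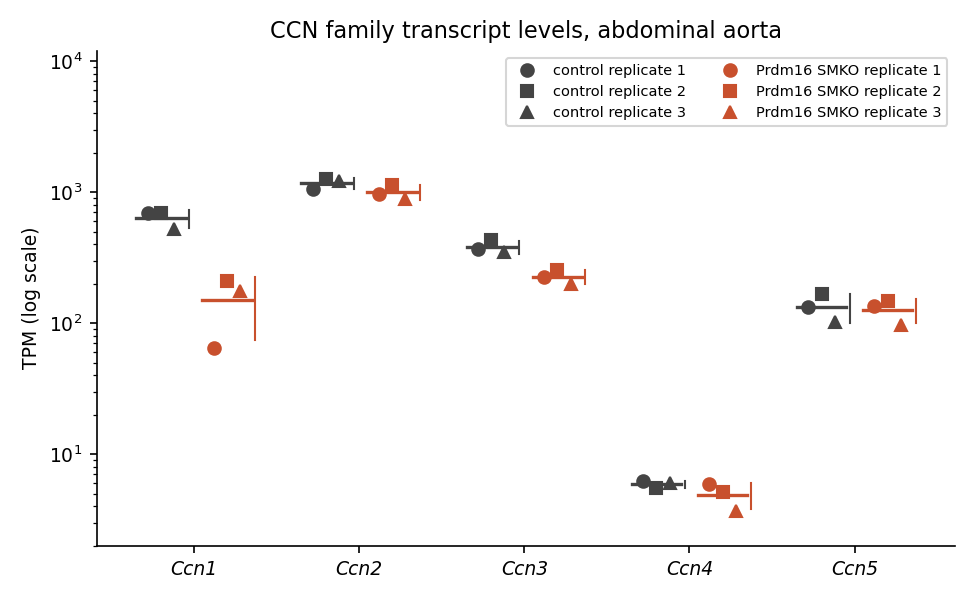
TPM of each CCN gene on a logarithmic axis, with 1 point per library and marker shape giving the replicate number, the horizontal bar the group mean and the vertical line 1 SD on each side (n = 3). The 3 *Prdm16* SMKO libraries lie below the 3 controls for *Ccn1* (at most 211 against at least 519 TPM) and *Ccn3* (at most 255 against at least 347 TPM), and the groups overlap for the others.

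**Figure D2:**
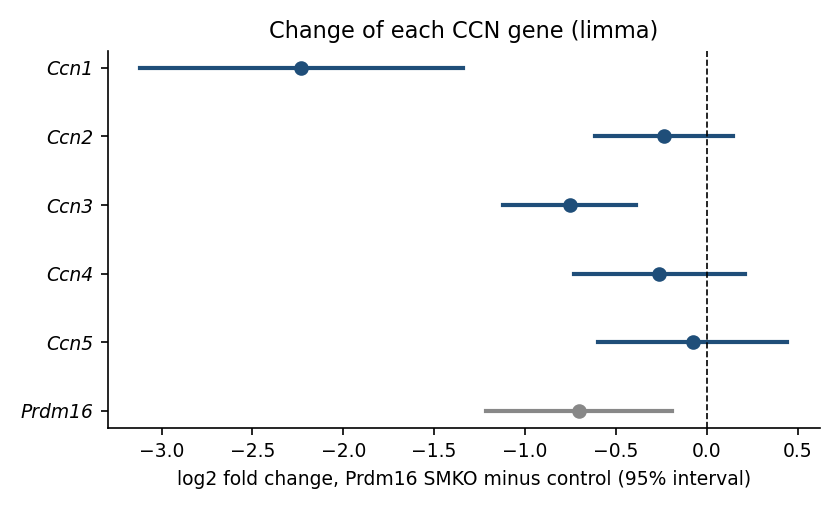
Log2 fold change of each CCN gene and of *Prdm16* with its 95% interval from limma (n = 3 per group). The intervals of *Ccn1* (-3.12 to -1.34) and *Ccn3* (-1.12 to -0.39) lie below 0, and those of *Ccn2*, *Ccn4* and *Ccn5* include 0.

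The order of the members by level differed between the groups in the position of *Ccn1*. In each control library the order was *Ccn2*, *Ccn1*, *Ccn3*, *Ccn5* and *Ccn4*, and in this group the ranges of neighbours in that order did not overlap. In each knockout library *Ccn3* exceeded *Ccn1*. The ratio of *Ccn1* to *Ccn3* was 1.87, 1.62 and 1.50 in controls and 0.288, 0.827 and 0.881 in knockouts. The range of *Ccn1* in knockouts overlapped that of *Ccn3* and that of *Ccn5*, and in knockout replicate 1 *Ccn1* was also below *Ccn5*. The ratio of *Ccn2* to *Ccn3* was 2.85, 2.93 and 3.50 in controls and 4.31, 4.46 and 4.48 in knockouts, so the most abundant member was further above *Ccn3* in every knockout.

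Whether members shifted by different amounts was tested for all 10 pairs by an exact permutation test (two-sided) of the difference between their log2 levels. The groups did not overlap for 7 of 10 pairs, each at an exact permutation p of 0.1, the smallest possible, and 0.143 after adjustment over the 10 pairs, so no pair could pass 0.05 in this design. All 4 pairs with *Ccn1* were among the 7, and each of the 7 held *Ccn1* or *Ccn3*. As these 2 members differed without overlap on their own, the 7 pairs are not separate results. The share of all gene pairs without overlap is not given here. *Ccn1* was lowered relative to *Ccn2* by a log2 difference of -1.99, relative to *Ccn3* by -1.48, relative to *Ccn4* by -1.97 and relative to *Ccn5* by -2.15. Without knockout replicate 1 these differences were smaller in size, at -1.49, -0.95, -1.32 and -1.58. The other 3 were the pairs of *Ccn3* with *Ccn2*, *Ccn4* and *Ccn5*, where *Ccn3* was the lower partner in knockouts, with a *Ccn2* minus *Ccn3* difference of 0.52, a *Ccn3* minus *Ccn4* difference of -0.49 and a *Ccn3* minus *Ccn5* difference of -0.68. Among *Ccn2*, *Ccn4* and *Ccn5* the differences were 0.03, -0.16 and -0.19 with exact p of 0.9, 0.6 and 0.6, and their signs changed when single libraries were left out.

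**Figure D3:**
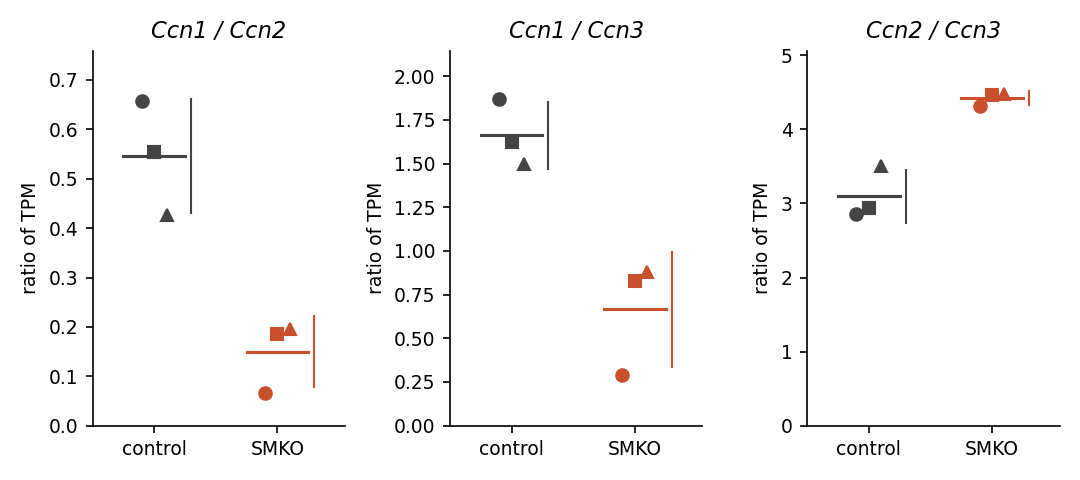
Ratios of TPM between the 3 most abundant members, with 1 point per library, marker shape giving the replicate number, a horizontal bar at the group mean and a vertical line of 1 SD on each side (n = 3). *Ccn1* over *Ccn3* lies above 1 in all 3 controls (1.50 to 1.87) and below 1 in all 3 *Prdm16* SMKO libraries (0.288 to 0.881), and *Ccn2* over *Ccn3* is higher in the knockouts (4.31 to 4.48 against 2.85 to 3.50).

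Summed over the 5 members, CCN transcripts came to 2244, 2566 and 2188 TPM in controls and 1405, 1756 and 1363 TPM in knockouts. Every knockout was below every control, with means of 2333 ± 204 and 1508 ± 216 TPM (SD, n = 3), a log2 fold change of -0.63 and an exact permutation p of 0.1 (two-sided, the smallest possible). *Ccn1* accounted for 58.8% of the difference in mean summed TPM, *Ccn2* for 21.3% and *Ccn3* for 18.9%. Without *Ccn1* the sum was 1697 ± 158 TPM in controls and 1358 ± 179 TPM in knockouts (SD, n = 3), again with no overlap between the groups (exact permutation p = 0.1). *Ccn1* made up 30.7%, 27.2% and 23.7% of the pool in controls and 4.63%, 12.0% and 12.8% in knockouts. The share of *Ccn2* was correspondingly higher, at 66.5% ± 2.50 against 50.5% ± 4.53 (SD, n = 3), and so was that of *Ccn5*, at 8.36% ± 1.23 against 5.69% ± 0.972. The share of *Ccn3* overlapped between the groups, at 16.3% ± 0.467 in controls and 15.1% ± 0.893 in knockouts.

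**Figure D4:**
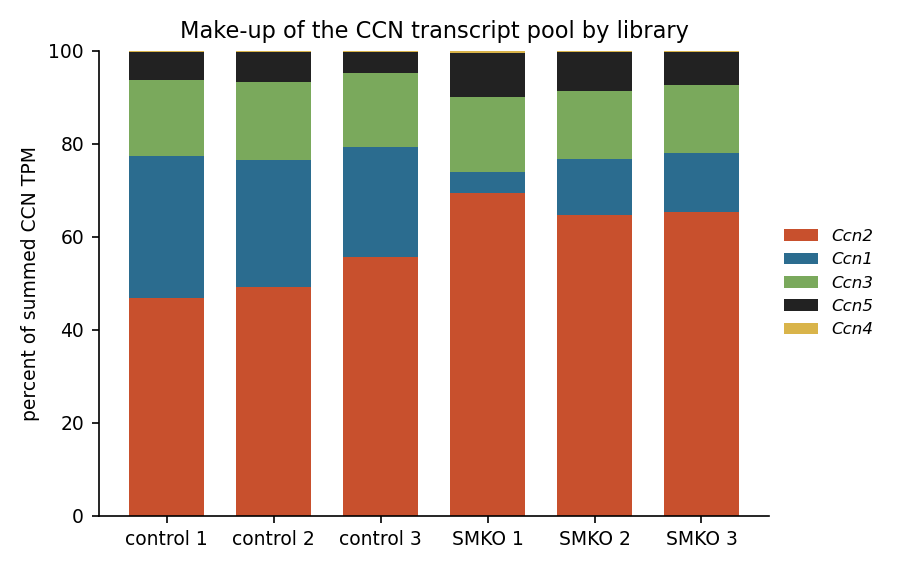
Share of each gene in the summed CCN TPM of each library, as stacked bars in percent, with *Ccn4* too scarce to see (at most 0.421% in any library). The band of *Ccn1* narrows from between 23.7% and 30.7% in the controls to between 4.63% and 12.8% in the *Prdm16* SMKO libraries, while that of *Ccn3* keeps to between 14.5% and 16.8%.

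Genes with related roles were read from 7 lists, each described by its counts beside the median log2 fold change of 0.03 over all genes tested. Of 20 receptors and co-receptors of CCN proteins that were tested, 8 were higher, 12 were lower and 0 were called by limma, with a list median of -0.06 and 2 in each direction at an unadjusted p under 0.05 (3.85% lower and 4.88% higher of all genes tested). *Itgb3*, the beta-3 subunit that pairs with *Itgav* in the CCN-binding vitronectin receptor, measured 52.8, 67.9 and 43.7 TPM in controls and 28.7, 32.3 and 19.6 TPM in knockouts. Those groups did not overlap, and the log2 fold change was -1.02 ± 0.23 (SE, n = 3 per group, limma adjusted p = 0.15). The WNT co-receptor *Lrp5*, also without overlap, and the growth factor receptor *Fgfr2*, with overlap, had log2 fold changes of -0.45 and -0.46 (limma adjusted p = 0.447 and 0.646). In the other direction and also without overlap, the leukocyte integrin subunit *Itgb2*, at 0.87 to 1.29 TPM in controls and 1.69 to 4.03 TPM in knockouts, and the decoy receptor *Tnfrsf11b* had log2 fold changes of 0.96 and 0.38 (limma adjusted p = 0.394 and 0.552).

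Lists of factors known to act on *Ccn1* and *Ccn2*, and of their other targets, had medians of -0.11 to -0.02. Among 23 YAP-TEAD and Hippo regulators, 10 were higher and 13 lower, 0 were called by limma and the median was -0.11. An unadjusted p under 0.05 was found for 1, which was lower (3.85% of all genes tested). *Amotl2*, which holds YAP out of the nucleus and is itself a YAP target, had the largest change in that list at -0.84 ± 0.22 (SE, n = 3 per group, limma adjusted p = 0.252), followed among genes of at least 5 TPM by the TEAD factors *Tead3* at -0.29 and *Tead2* at -0.28 (limma adjusted p = 0.819 and 0.914). A scarcer TEAD factor, *Tead4*, at 0.59 to 0.72 TPM in controls and 0.93 to 1.27 TPM in knockouts, had a log2 fold change of 0.41 (limma adjusted p = 0.823). Of 19 other YAP-TEAD target genes tested, 9 were higher and 10 lower with a median of -0.04. Of these, 1 was called higher, opposite to *Ccn1*, and 0 lower, against 0.184% and 0.171% of all genes tested. At an unadjusted limma p under 0.05, 2 were higher and 3 lower, against 4.88% and 3.85% of all genes. Without overlap between the groups, 2 were higher and 4 lower, against 7.02% and 5.76%. The called gene was *Ankrd1*, a mechanosensitive cofactor. It rose from 6.40, 6.67 and 4.74 TPM to 36.9, 39.3 and 27.9 TPM, a log2 fold change of 2.45 ± 0.20 (SE, n = 3 per group, limma adjusted p = 0.00267). The lists of Hippo regulators and YAP-TEAD targets share *Amotl2* and other genes, and the target *Fjx1* measured a log2 fold change of -0.71 (limma adjusted p = 0.354). Among 20 SRF-MRTF and TGF-beta regulators, 10 were higher and 10 lower, 0 were called by limma and the median was -0.02. An unadjusted p under 0.05 was found for 1, which was higher (4.88% of all genes tested). The extremes there were the ligand *Tgfb2* at 0.53, the inhibitory *Smad6* at -0.46 and serum response factor itself, *Srf*, at -0.36 (limma adjusted p = 0.379, 0.713 and 0.683).

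Immediate-early genes, which cells switch on within minutes of a stimulus as they do *Ccn1*, made up the list with the largest share of lower genes. Of 32 tested, 27 were lower and 5 higher, and the median was -0.65 on the log2 scale. Of these, 6 fell by the limma test and 0 rose, against 0.171% and 0.184% of all genes tested. Without overlap between the groups, 17 of 32 were lower and 1 of 32 higher, against 5.76% and 7.02% of all genes. As the list was written with earlier results of these data known, these counts describe it and are not an independent test. The nuclear receptor gene *Nr4a1* fell from 131, 130 and 187 TPM in controls to 19.8, 26.2 and 36.2 TPM in knockouts, by 2.45 on the log2 scale (SE 0.24, n = 3 per group, limma adjusted p = 0.00762). The transcription factor genes *Atf3*, *Nr4a2*, *Fosb* and *Egr3* fell by 1.66, 1.40, 1.36 and 1.29 on the log2 scale (limma adjusted p between 0.0239 and 0.0414). *Arc*, best known from neurons, fell from 7.33, 8.40 and 9.98 TPM to 1.16, 2.18 and 2.09 TPM (limma adjusted p = 0.0164). *Fos* had a log2 fold change of -2.23 with a wide spread within groups (SE 0.69) and was not called (limma adjusted p = 0.357). With single libraries left out it ranged from -2.86, without control replicate 3, to -1.49, without knockout replicate 1. *Fos* measured 134, 78.7 and 27.7 TPM in controls and 4.57, 22.1 and 24.7 TPM in knockouts, and knockout replicate 1 was the lowest library for *Fos* as it was for *Ccn1*. The summed level of the list was 1526 to 1881 TPM in controls and 907 to 1243 TPM in knockouts. With any library left out, 0 to 3 of the list were called. Promoter windows were given for 27 immediate-early genes and 14 YAP-TEAD targets. The half-site marked in *Ccn1*, found in 19.8% of all windows, is in 17 of 27 and 3 of 14. The TEAD motif, found in 14.4% of all windows, is in 4 of 27 and 5 of 14, and the TATA letters, in 14.3%, in 4 and 2. Of the motifs absent from *Ccn1*, the CArG box (1.62% of all windows) is in 3 and 0. AP-1 (7.82%) is in 0 and 1, and SMAD (45.8%) in 7 and 6. Whether any motif bears on the levels was not tested.

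Other matricellular proteins, and proteins that share the insulin-like growth factor binding module of the CCN family, were read in the same way. Of 20 other matricellular genes tested, 8 were higher and 12 lower with a median of -0.05. Of these, 1 was called lower and 0 higher, against 0.171% and 0.184% of all genes tested. At an unadjusted limma p under 0.05, 5 of 20 were lower and 1 higher, against 3.85% and 4.88% of all genes tested. Without overlap between the groups, 5 of 20 were lower and 0 higher, against 5.76% and 7.02% of all genes. The summed level of the list was 5169 to 7142 TPM in controls and 3618 to 4727 TPM in knockouts. *Comp*, a thrombospondin of cartilage and arterial matrix, fell from 18.8, 22.9 and 19.2 TPM to 7.37, 8.97 and 8.92 TPM (log2 fold change -1.22 ± 0.17, SE, n = 3 per group, limma adjusted p = 0.0265), a call that was lost with any library left out. The proteoglycan *Bgn* and the testican *Spock2* had log2 fold changes of -0.70 and 0.69 (limma adjusted p = 0.332 and 0.556), the former without overlap. Of 12 genes with the binding module, 5 were higher and 7 lower, 0 were called by limma and the median was -0.12. An unadjusted limma p under 0.05 was found for 3 of them, all lower, against 3.85% of all genes tested. Without overlap between the groups, 3 were lower and 0 higher, against 5.76% and 7.02% of all genes. The largest changes there among genes of at least 5 TPM were those of the secreted proteases *Htra3* and *Htra1*, at -0.60 and -0.46, and of *Kazald1*, at -0.37 (limma adjusted p = 0.428, 0.489 and 0.605).

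**Figure D5:**
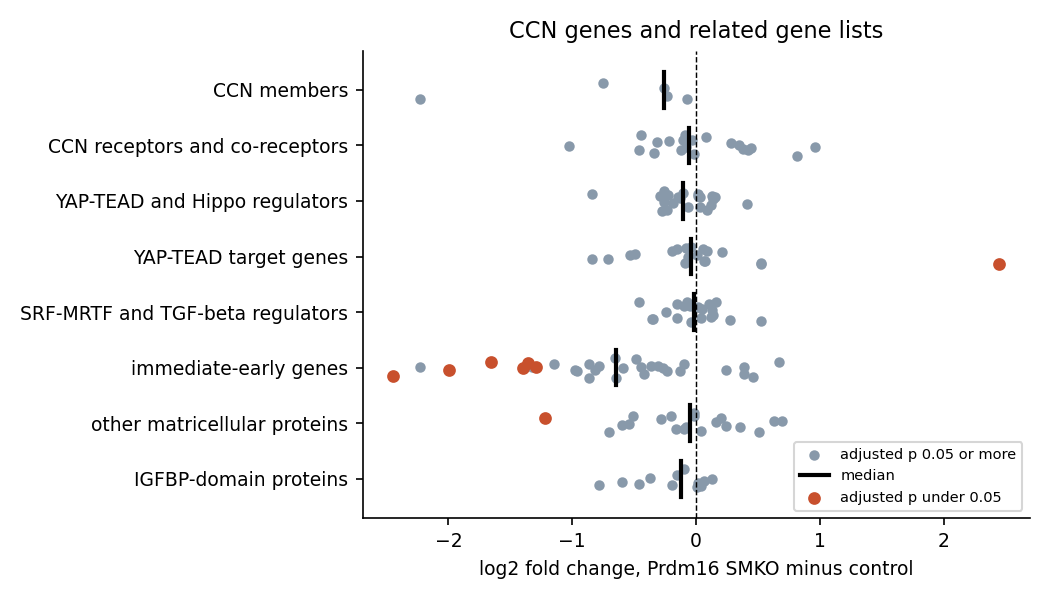
Log2 fold change, *Prdm16* SMKO minus control, of each gene tested in the CCN family and in 7 related lists, with 1 point per gene, the median as a black bar and called genes in orange. *Ccn1* at -2.23 lies apart from the other CCN genes, and the median of immediate-early genes (-0.65) lies lower than those of the other 6 lists (-0.12 to -0.02).

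The genes whose pattern over the 6 libraries was most like that of each member were found by Pearson correlation of log2(TPM + 0.5) among 9664 genes of at least 5 TPM. These points share libraries and a group difference, so the correlations only describe likeness. The nearest genes to *Ccn1* were *Sik1* (r = 0.992), *Nfkbiz* (0.988) and *Twist2* (0.984), with *Sik1* at 13.4, 13.4 and 13.3 TPM in controls and 4.79, 8.18 and 8.10 TPM in knockouts. The nearest to *Ccn3* were *Eln* (r = 0.997), *Sparc* (0.994) and *Limch1* (0.991). *Eln*, which encodes elastin, fell from 2531, 3550 and 1988 TPM to 757, 941 and 597 TPM, by 1.80 on the log2 scale (limma adjusted p = 0.0312), a larger change than that of *Ccn3* in the same order of libraries. The nearest to *Ccn2* were *Upf2* (r = 0.995), *Zfp747* (0.991) and *Nasp* (0.980), those to *Ccn4* were *Wdfy1* (0.990), *Stn1* (0.983) and *2700062C07Rik* (0.977), and those to *Ccn5* were *Tmem115* (0.997), *Slc36a4* (0.997) and *Fbxo10* (0.996). Of the genes nearest to *Ccn1* and *Ccn3*, only *Eln* was called, and the others had a limma adjusted p of 0.119 or more. None of the genes nearest to *Ccn2*, *Ccn4* and *Ccn5* was called (limma adjusted p of 0.634 or more).

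Markers of cell types in the aortic wall were set beside the CCN genes. None of the marker genes was called by limma, and the summed TPM of the 12 VSMC markers was 16060 to 27040 in controls and 12530 to 19100 in knockouts, with overlap, 8 lower and 4 higher. Of the 12 macrophage markers, 11 were higher, 7 of them at an unadjusted p under 0.05 (4.88% of all genes tested). Without overlap, 5 were higher and 0 lower, against 7.02% and 5.76% of all genes. Their sums were 85.0 to 135.3 TPM in controls and 135.2 to 250.0 TPM in knockouts. All 10 adipocyte markers were higher on average. Their sums were 1322, 1307 and 5116 TPM in knockout replicates 1, 2 and 3, against 927 to 2055 TPM in controls, so only replicate 3 lay above the controls. All 10 neuron and Schwann cell markers and 4 of 6 muscle markers were also higher, with the highest sums, 471 and 70.9 TPM, in knockout replicate 1. Of 5 erythroid markers tested, 5 were higher and 5 had an unadjusted p under 0.05 (4.88% of all genes tested), but 0 were without overlap. The list summed to 4947, 19570 and 2191 TPM in knockout replicates 1, 2 and 3, against 1143 to 3167 TPM in controls. Endothelial markers were higher in 10 of 12 and adventitial fibroblast markers in 9 of 12, the 3 lymphocyte markers tested were higher, mesothelial markers summed to at most 0.64 TPM, and *Myl7* of the muscle list was at 0 in every library. The part of such cells in the levels of *Ccn1* and *Ccn3* was not tested. Leaving out each library in turn gave log2 fold changes of -2.56 to -1.71 for *Ccn1* and of -0.84 to -0.66 for *Ccn3*.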

How the data were processed

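RNA of mouse abdominal aorta was sequenced by the authors after poly(A) selection, as 3 *Prdm16* SMKO and 3 control libraries. The authors deposited TPM values, which correct for transcript length and have equal totals across libraries, for 55426 genes. The submitters' processing notes name cutadapt 2.3, FastQC 0.11.8, STAR 2.7.8a, RSEM 1.3.3, MultiQC 1.7 and GRCm38. Annotation and filters are not given in the sources used here. RSEM shares ambiguous reads between genes by likelihood, and TPM of every gene move with the share of abundant ribosomal and mitochondrial transcripts. The depth of each library is not known, and no counting error could be computed. Libraries were numbered as in their labels, and no pair was identical. The authors give n = 3 for the sequenced aortas, and the labels do not state that each replicate is a separate mouse. The p-values weigh the group difference against the spread between these libraries.

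Log2(TPM + 0.5) was fitted for 15775 genes, those averaging 0.5 TPM or more, in limma 3.58.1 (R 4.3.3) with a variance trend and Benjamini-Hochberg adjustment over all genes, which was tested on simulated data. Single values had exact permutation tests. The members and lists were chosen with earlier results of these data known. In each list, the called genes and the 3 largest changes among genes of at least 5 TPM are named, and for each member the 3 most correlated genes. Markers, *Ccn6* and *Prdm16* were also named, and *Itgb2*, *Tnfrsf11b* and *Tead4* were chosen after their values were seen. Alternatives were pseudocounts of 0.1 and 1, no minimum or a minimum of 2 TPM, size factors, quantile normalization, rescaling without mitochondrial and 45S transcripts, other variance estimates, array weights, a replicate block and leaving out each library. Positions came from GENCODE M21 and the promoter from RefSeq. Python 3.11.15, pandas 2.3.3, scipy 1.17.1 and matplotlib 3.10.9 made tables and figures.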

Additional observations from a re-analysis of the deposited data

How the results depend on the processing

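*Ccn1* kept its direction under all 17 alternatives, with adjusted p from 0.00875 to 0.252 by limma. It passed the threshold with a minimum mean of 2 TPM (log2 fold change -2.23, adjusted p = 0.0315), with array weights (-2.33, adjusted p = 0.00875) and without *Prdm16* SMKO replicate 1 (-1.71, adjusted p = 0.0195), and leaving out single libraries gave -2.56 to -1.71. *Ccn3* kept its direction too, with adjusted p from 0.0204 to 0.393. It passed with size factors (-0.77, adjusted p = 0.0233), quantile normalization (-0.69, adjusted p = 0.0425), without mitochondrial and 45S transcripts (-0.74, adjusted p = 0.0295) and with array weights (-0.69, adjusted p = 0.0204). Array weights gave control replicate 1 a weight of 10.1 against 0.414 to 0.954 for the others. *Ccn5* had no stable sign, at -0.26 to 0.10 with single libraries left out and 0.10 without control replicate 2 or *Prdm16* SMKO replicate 3. The same held for *Ccn2* minus *Ccn4* (-0.087 to 0.174, with -0.087 without control replicate 1, -0.03 without knockout replicate 2 and -0.07 without knockout replicate 3), *Ccn2* minus *Ccn5* (-0.282 to 0.052, with 0.052 without control replicate 3) and *Ccn4* minus *Ccn5* (-0.405 to 0.012, with 0.012 without control replicate 3).

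The number of genes called, 56, was 10 with no minimum, 153 with size factors, 129 with quantile normalization, 123 without mitochondrial and 45S transcripts, 33 without a variance trend, 112 with robust variances and 494 with array weights. It was 5 to 61 with single libraries left out, with 17, 5 and 17 without control replicates 1, 2 and 3 and 28 without knockout replicate 2. Of the calls, 51.8% were higher in knockouts, against 39.2% with size factors and 35.7% with quantile normalization. Called immediate-early genes, 6, numbered 0 with no minimum, 2 without a trend, 12 with array weights and 0 to 3 with any library left out. *Comp* was the 1 called matricellular gene and lost its call (0 called) with no minimum, without a trend and with any library left out. Receptors called numbered 1 with size factors or array weights, YAP-TEAD targets 2 and SRF-MRTF and TGF-beta regulators 1 with array weights. Without control replicate 2 the median of all genes moved from 0.03 to 0.11. The cause of these shifts was not tested.

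With the replicate number as a block, 4 genes were called, among them 1 immediate-early gene and 0 matricellular genes, and *Ccn1* and *Ccn3* had adjusted p of 0.227 and 0.176. Deviations of same-numbered libraries from their group means had correlations of -0.131, -0.11 and 0.019. Deviations from a mean of 3 libraries constrain one another, so these values cannot show whether the numbers pair the libraries. TPM without counts limit what can be said of *Ccn4* at about 5 TPM and *Ccn6* near 0.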
